A study of Homo sapiens with 12 samples.

Results

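The GADD45 family was examined as every array probe annotated to GADD45A, GADD45B or GADD45G, which gave 3 of the 20046 genes named on the array and 4 of its 47323 probes: 2 for GADD45A (ILMN_1694075 and ILMN_2052208), 1 for GADD45B (ILMN_1718977) and 1 for GADD45G (ILMN_1651498). RNA was taken 48 h after plasmids had been introduced into HEK293T, a line of human embryonic kidney origin that carries SV40 large T antigen, and each of 6 groups held 2 independently transfected replicates, 12 bead arrays in all. The Control group received empty vector, and the others received human GADD45a, human ING1b, both together (GADD45a+ING1b), ING1b lacking its PHD domain (ING1bΔPHD), or GADD45a with that truncated protein (GADD45a+ING1bΔPHD). Expression from the plasmids was transient, and the promoter and the share of cells transfected were not stated in the labels. A cell population was profiled as bulk RNA, so a change in every cell and a larger change in the transfected cells alone cannot be told apart.

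The GADD45 proteins are small, acidic nuclear proteins without known enzyme activity of their own, made when cells meet genotoxic or other stress. They act by binding partners: they activate the kinase MAP3K4 upstream of p38 and JNK, bind PCNA and p21, and inhibit the CDK1 and cyclin B1 complex. GADD45 proteins have also been linked to active DNA demethylation through repair enzymes, and ING1b, a chromatin protein that reads methylated histone H3 tails through its PHD finger, has been studied as a partner that guides GADD45A to chromatin.

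Between 14555 and 16301 probes were detected per array (detection p under 0.01), and the array medians lay between 129 and 140 intensity units. Replicates correlated at 0.978 to 0.986 across the 17814 probes that were detected on at least 2 arrays and tested. Of 6 markers chosen for HEK293T, VIM, CDH2 and KRT18 were detected on all 12 arrays and KRT8 on 11, while PAX2 and LHX1 were detected on 0. Blood, muscle and endothelial markers with a probe were detected on 0 arrays, and of 3 liver markers ALB had a probe detected on all 12. The labels call the replicates independently transfected, and they do not say whether separate cultures or passages were used.

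GADD45A lies on chromosome 1 (GRCh38.p14, chr1:67685201-67688334), GADD45B on chromosome 19 (chr19:2476127-2478257) and GADD45G on chromosome 9 (chr9:89605012-89606555), all in RefSeq's annotation. GADD45B and GADD45G had their highest means in the same groups, ING1b and GADD45a+ING1b. GADD45G was detected on at least 2 arrays only through those groups and passed in no comparison. The match is therefore no independent evidence, and shared regulation was not tested. Only the promoters of GADD45B and GADD45G are shown, since the promoter set used held 2 of the 3 family genes and had no entry for GADD45A. Each is the 250 bases before the RefSeq transcription start on the plus strand (GRCh38.p14, chr19:2475877-2476126 and chr9:89604762-89605011), 5′ to 3′, and capitals mark matches to the motifs named below.
GADD45B: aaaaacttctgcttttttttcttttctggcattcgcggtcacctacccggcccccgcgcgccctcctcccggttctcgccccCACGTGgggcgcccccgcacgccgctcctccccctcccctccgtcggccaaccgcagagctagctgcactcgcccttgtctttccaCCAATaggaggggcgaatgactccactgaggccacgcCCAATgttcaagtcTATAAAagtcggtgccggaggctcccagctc
GADD45G: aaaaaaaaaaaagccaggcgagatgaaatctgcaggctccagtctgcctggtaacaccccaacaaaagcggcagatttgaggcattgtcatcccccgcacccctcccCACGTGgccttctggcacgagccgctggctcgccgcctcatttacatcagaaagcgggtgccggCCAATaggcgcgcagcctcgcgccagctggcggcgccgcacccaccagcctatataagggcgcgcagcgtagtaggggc

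Motifs were searched on both strands in these windows and in all 35116 windows of the promoter set, and were picked after the sequences had been seen. Both windows held the E-box CACGTG, which 6.3% of all windows held, and at least 1 CCAAT box (CCAAT), which 32.0% held. The GADD45B window also held TATAAA, found in 10.7% of windows, 31 bases before the start. Only that exact string was searched, so the similar run TATATAAG in the GADD45G window was not counted. Matches to the GC box GGGCGG (42.6% of windows), the AP-1 site TGANTCA (6.6%) and the CRE core TGACGT (7.1%) were in neither. The GADD45B window held 21 CpG dinucleotides and that of GADD45G held 20, against a median of 11. Fewer were held by 69.8% and 67.6% of all windows, so neither count was unusual. A match here is only a run of letters, and binding was not measured.

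GADD45A, the founding member and a target of p53, was read first because its cDNA was transfected. Signal at ILMN_1694075 was high on every array without GADD45a in its label and was not detected on any array with it. The deposited intensities were 744 and 1021 in Control, 1015 and 1088 in ING1b, and 966 and 858 in ING1bΔPHD. They were 142 and 128 in the arrays labelled GADD45a, 160 and 149 in GADD45a+ING1b, and 156 and 130 in GADD45a+ING1bΔPHD. The arrays with GADD45a lay between 128 and 160 and those without between 744 and 1088, with no overlap. The authors' deposited normalized values showed the same split, 12.9 to 49.8 against 571 to 947 intensity units.

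This direction goes against the labels if the probe reads the transfected message. A plasmid that carries only part of the message is read by a probe within that part, and neither the insert nor the probe's position was given here. The probe therefore does not check the transfection, and groups are named by their labels throughout. Were arrays with and without GADD45a exchanged as a whole, every difference below between groups that differ only in GADD45a would turn around. In the other comparisons the groups would carry other labels, and their directions would not all turn around.

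Averaged over the 3 backgrounds (empty vector, ING1b and ING1bΔPHD), signal at ILMN_1694075 with GADD45a was lower by a factor of at least 12.7 (6 arrays against 6 ; limma adjusted p = 2.23e-06), and it had the smallest p of all 17814 tested probes. The factor is a lower bound under the background correction used, with each array that did not detect the probe set at the lowest normalized signal of any detected probe on that array. The fitted difference was -4.08 (log2) and ran from -4.73 with the authors' deposited values to -2.56 without background correction, which is smaller than the bound, and the call was kept in both. In this comparison 1.63% of tested probes were called at an adjusted p under 0.05, and 1 of the 4 family probes was. All 6 arrays with GADD45a lay below all 6 others at 1.23% of tested probes.

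Within single backgrounds the probe was at least 11.8-fold lower in GADD45a than in Control (limma adjusted p = 0.000363), where 0.5% of probes were called. It was at least 14.3-fold lower in GADD45a+ING1b than in ING1b (limma adjusted p = 0.000637; 0.202% called) and at least 12.1-fold lower in GADD45a+ING1bΔPHD than in ING1bΔPHD (limma adjusted p = 0.000402; 0.0786% called). The probe had the smallest p in each of these 3 comparisons. Without background correction the fitted differences were -2.51, -2.59 and -2.57 (log2), again smaller than these bounds, and all 3 calls were kept. GADD45a+ING1bΔPHD was at least 10.8-fold below Control (limma adjusted p = 0.000594), a call that was lost in a fit of those 4 arrays alone (adjusted p = 0.0998), with a fitted difference of -3.96 (log2; -2.43 without background correction). ING1b alone differed from Control by 0.35 (log2, SE 0.259, 95% interval -0.23 to 0.93, limma adjusted p = 0.749) and ING1bΔPHD by 0.17 (95% interval -0.41 to 0.74, limma adjusted p = 0.849). Neither passed, and both intervals include changes of over 1.5-fold.

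**Figure D1:**
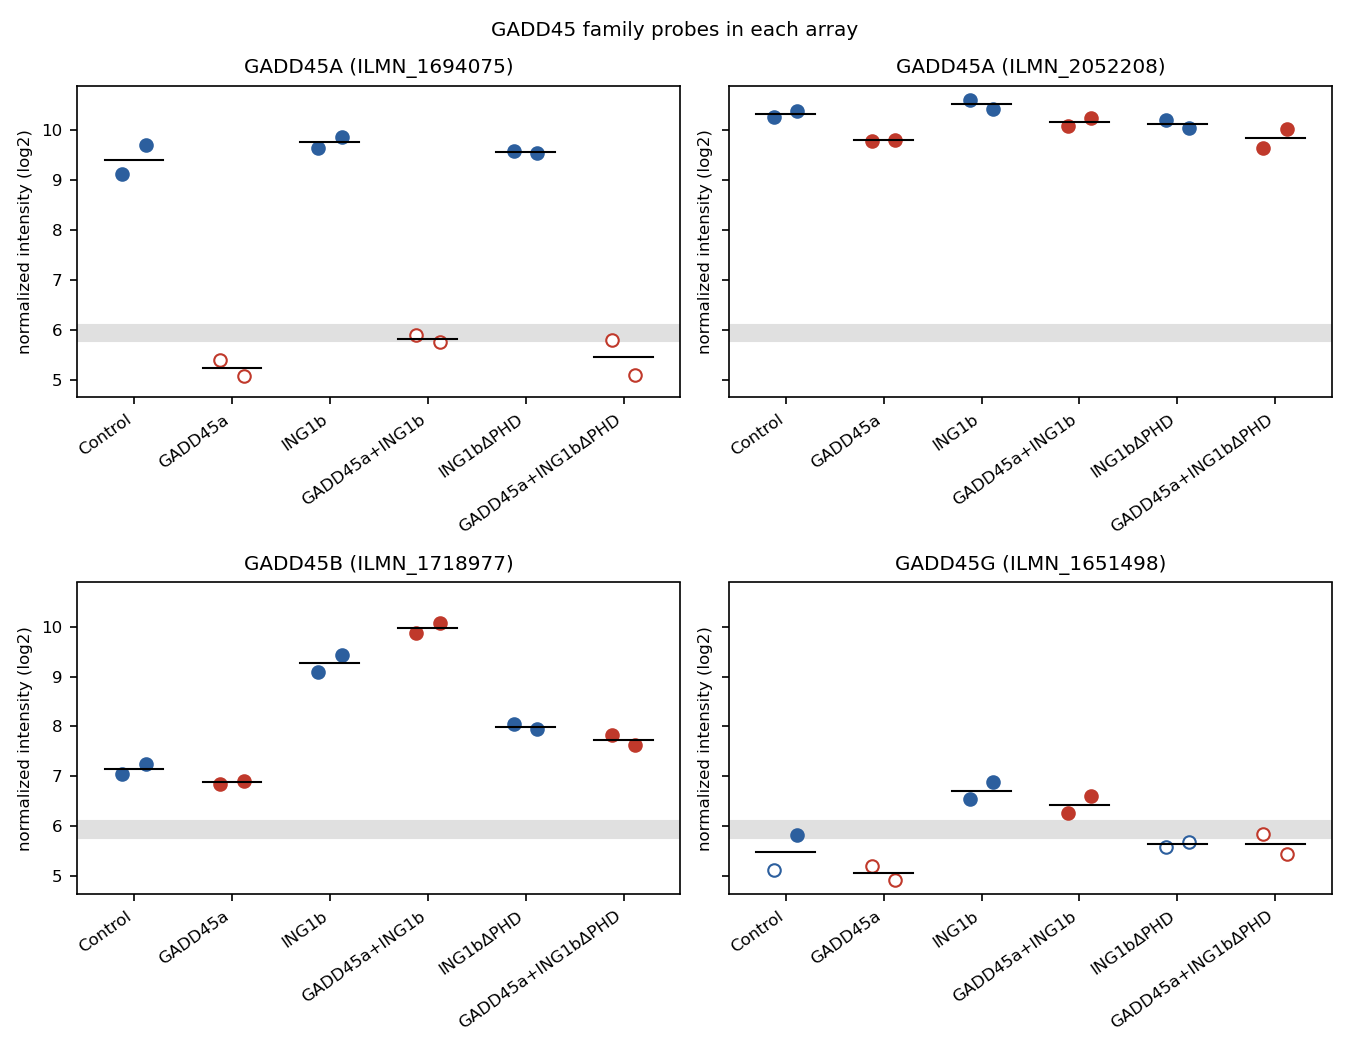
Normalized log2 intensity (y axis) of the 4 GADD45 family probes in each of the 12 arrays, by group (x axis). Points are single arrays, red where the label includes GADD45a and blue where it does not, open where the probe was not detected; lines are means of 2 arrays, and the grey band spans the arrays' detection floors (5.76 to 6.10). ILMN_1694075 falls into the band or below it on the 6 red arrays, and GADD45B is highest in GADD45a+ING1b and ING1b.

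The other GADD45A probe, ILMN_2052208, was detected on all 12 arrays, and its difference was far smaller. Its intensities were 1497 and 1617 in Control, 1851 and 1568 in ING1b, and 1436 and 1152 in ING1bΔPHD. The arrays labelled GADD45a gave 918 and 897, GADD45a+ING1b gave 1072 and 1127, and GADD45a+ING1bΔPHD gave 859 and 1123. As deposited, the 6 arrays with GADD45a (859 to 1127) were all below the 6 without (1152 to 1851), while after normalization the ranges overlapped (9.64 to 10.24 against 10.04 to 10.60, log2). The share of all probes split this way as deposited was not computed. Array medians over all probes ran from 129 to 133 with GADD45a and from 132 to 140 without.

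Averaged over the 3 backgrounds, ILMN_2052208 was 1.31-fold lower with GADD45a (log2 -0.39, SE 0.0997, 95% interval -0.61 to -0.17), which did not pass over all probes (limma adjusted p = 0.0914). With the replicate number as a block it passed (block adjusted p = 0.0465), in a fit that called 5.13% of probes, and it also passed under median scaling (-0.59, adjusted p = 0.0164). Under that scaling the median of all probes moved by -0.17, and the probe differed from that median by -0.42. It was lower with GADD45a in all 3 backgrounds, by -0.53 against Control, -0.35 against ING1b and -0.29 against ING1bΔPHD (SE 0.173), and arrays did not overlap in any of them, although with ING1bΔPHD the nearest arrays stood at 10.03 and 10.04. Of all tested probes 3.04% were lower without overlap in all 3 backgrounds. Both GADD45A probes were thus lower on arrays labelled GADD45a, with ILMN_1694075 called and ILMN_2052208 called only in some fits. The cause of their unequal change was not tested.

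GADD45B, a stress-induced paralog first described in myeloid differentiation, known to inhibit the JNK kinase MAP2K7 and induced by TGF-beta and NF-kB, rose with ING1b. Its intensities were 259 and 266 in Control, 213 and 206 in GADD45a, 398 and 356 in ING1bΔPHD, and 317 and 291 in GADD45a+ING1bΔPHD. ING1b arrays gave 728 and 842, and GADD45a+ING1b arrays gave 940 and 1019. The normalized means were, from the top, 9.97 ± 0.142 in GADD45a+ING1b, 9.26 ± 0.245 in ING1b, 8.00 ± 0.0597 in ING1bΔPHD, 7.73 ± 0.144 in GADD45a+ING1bΔPHD, 7.15 ± 0.145 in Control and 6.88 ± 0.0418 in GADD45a (log2, SD, n = 2). No neighbouring groups in that order overlapped, but the order came from these same means, and its share among all probes was not computed. Of the steps between neighbours only that from ING1b to ING1bΔPHD passed (limma adjusted p = 0.0157). The smallest steps did not pass: GADD45a differed from Control by -0.27 (95% interval -0.65 to 0.12, limma adjusted p = 0.508).

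Full-length ING1b gave a 4.32-fold rise of GADD45B over Control (limma adjusted p = 0.00161), with the third smallest p in a comparison where 0.298% of probes were called. With GADD45a+ING1b the rise over Control was 7.07-fold (limma adjusted p = 0.000104), where 1.83% of probes were called and 2 of the 4 family probes were, the other being ILMN_1694075, at least 11.2-fold lower (log2 -3.59, and -2.29 without background correction). Against GADD45a alone, GADD45a+ING1b was 8.52-fold higher at GADD45B (log2 3.09, SE 0.173, limma adjusted p = 6.54e-05), with 0.337% of probes called. Without background correction the 3 differences at GADD45B were smaller, at 1.55, 2.17 and 2.32 (log2), and still passed. In a fit of the 4 arrays of ING1b and Control alone, the call over Control was lost (adjusted p = 0.0589).

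The truncated ING1bΔPHD was higher than Control by 0.85 at GADD45B (log2, SE 0.173, 95% interval 0.46 to 1.23). This difference did not pass over all probes (limma adjusted p = 0.318). In that comparison limma called 0 probes (0%), with 1868 at an unadjusted p under 0.05. GADD45a+ING1bΔPHD was higher than Control by 0.58 (95% interval 0.19 to 0.96, limma adjusted p = 0.174; 0.168% of probes called) and higher than GADD45a by 0.85 (95% interval 0.46 to 1.23, limma adjusted p = 0.438; 0% called, with 897 probes at an unadjusted p under 0.05).

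The PHD domain was addressed by setting full-length ING1b against ING1bΔPHD. GADD45B was 2.41-fold higher with the full-length protein (log2 1.27, SE 0.173, limma adjusted p = 0.0157; 0.286% of probes called), and in the presence of GADD45a it was 4.74-fold higher (log2 2.24, SE 0.173, limma adjusted p = 0.000548; 0.404% called), a call that was lost in a fit of those 4 arrays alone (adjusted p = 0.0505). Without GADD45a the call was lost when any of the 4 arrays was left out: the difference was 1.44 without ING1b replicate 1 (adjusted p = 0.0869), 1.09 without ING1b replicate 2 (0.169), 1.31 without ING1bΔPHD replicate 1 (0.12) and 1.22 without ING1bΔPHD replicate 2 (0.162). Levels of the ING1b and ING1bΔPHD proteins were not measured, and their part in this difference was not tested.

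**Figure D2:**
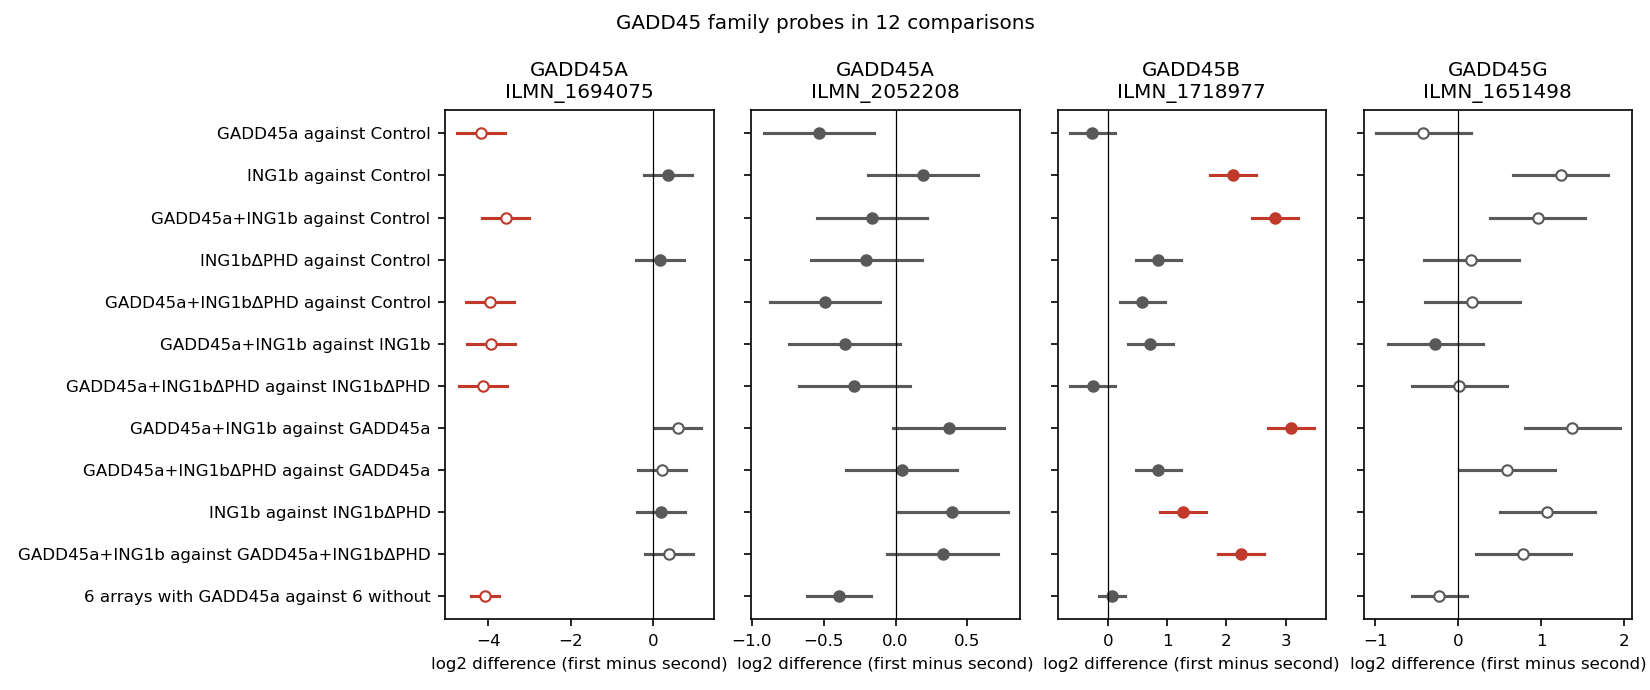
Log2 difference (x axis, first group minus second) of each GADD45 family probe in 12 comparisons (y axis), with its 95% interval from the limma fit. Red marks an adjusted p under 0.05, and open points are comparisons in which the probe was not detected on some arrays. ILMN_1694075 is called in 6 comparisons, all lower with GADD45a, and GADD45B in 5, all higher with full-length ING1b.

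Mean differences of GADD45B with GADD45a had opposite signs in different backgrounds, though no single difference passed. With GADD45a added to ING1b the mean was 0.71 higher (log2, SE 0.173, 95% interval 0.33 to 1.10, limma adjusted p = 0.271), and with it added to ING1bΔPHD the difference was -0.27 (95% interval -0.65 to 0.12, limma adjusted p = 0.957), close to the -0.27 against Control. Arrays did not overlap in any of the 3 pairs of groups, and 0.269% of tested probes showed this same arrangement without overlap. The arrangement counted was the one seen at GADD45B, so its share only describes it and is no test. Averaged over the 3 backgrounds, GADD45B with GADD45a differed by 0.06 (95% interval -0.16 to 0.28, limma adjusted p = 0.835), and by -0.13 under median scaling. The test of interaction gave 0.98 for GADD45a with ING1b (SE 0.244, 95% interval 0.43 to 1.52, unadjusted p = 0.00254), that is, a change with both constructs 0.98 above the sum of the single changes. It did not pass over all probes (limma adjusted p = 0.911), where limma called 0 probes and 796 had an unadjusted p under 0.05. For GADD45a with ING1bΔPHD the interaction was 0.0005 (SE 0.244, 95% interval -0.54 to 0.55), and 876 probes had an unadjusted p under 0.05 with 0 called.

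**Figure D3:**
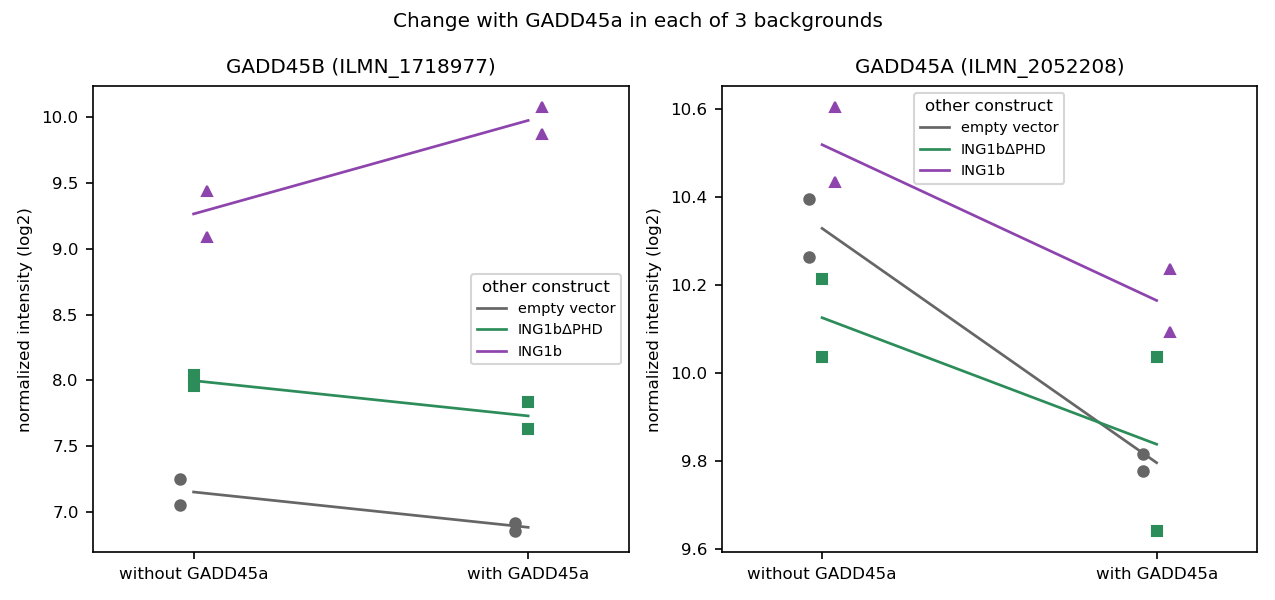
Normalized log2 intensity (y axis, different ranges in the 2 panels) of GADD45B and of the GADD45A probe ILMN_2052208 without and with GADD45a (x axis), in cells that received empty vector (circles), ING1bΔPHD (squares) or ING1b (triangles) besides. Points are arrays and lines join means of 2 arrays; with GADD45a the GADD45B mean differs by 0.71 with ING1b and by -0.27 in the other backgrounds, and all 3 means of ILMN_2052208 are lower.

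GADD45G, a paralog induced by cytokines and during differentiation and often silenced by promoter methylation in tumours, was near the detection limit. Its intensities were 139 and 160 in Control, where 1 of 2 arrays detected it, 213 and 232 in ING1b, and 175 and 184 in GADD45a+ING1b, where both arrays of each group did. They were 135 and 122 in GADD45a, 157 and 156 in ING1bΔPHD, and 158 and 143 in GADD45a+ING1bΔPHD, where it was detected on 0 arrays. The 4 arrays with full-length ING1b thus stood above the other 8, and the share of all probes with this split was not computed. Without those 4 arrays the probe would not have met the filter of 2 detected arrays, so the split is no independent evidence.

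Tests of GADD45G passed in no comparison over all probes. It was at least 1.89-fold higher in ING1b than in Control (limma adjusted p = 0.131), at least 1.56-fold higher in GADD45a+ING1b than in Control (limma adjusted p = 0.0981) and at least 1.51-fold higher in GADD45a+ING1b than in GADD45a (limma adjusted p = 0.0716). The last passed without Control replicate 1 (0.0419) or Control replicate 2 (0.0418), arrays that enter it only through the shared estimate of the spread. ING1b was at least 1.59-fold higher than ING1bΔPHD (limma adjusted p = 0.249), and GADD45a+ING1b at least 1.38-fold higher than GADD45a+ING1bΔPHD (limma adjusted p = 0.377). The bounds hold under the background correction used: without it the differences of ING1b and of GADD45a+ING1b from Control were 0.51 and 0.38 (log2), and that of GADD45a+ING1b from GADD45a was 0.54. GADD45a+ING1b and ING1b differed by -0.28 (log2, 95% interval -0.85 to 0.30), with overlapping arrays.

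**Figure D4:**
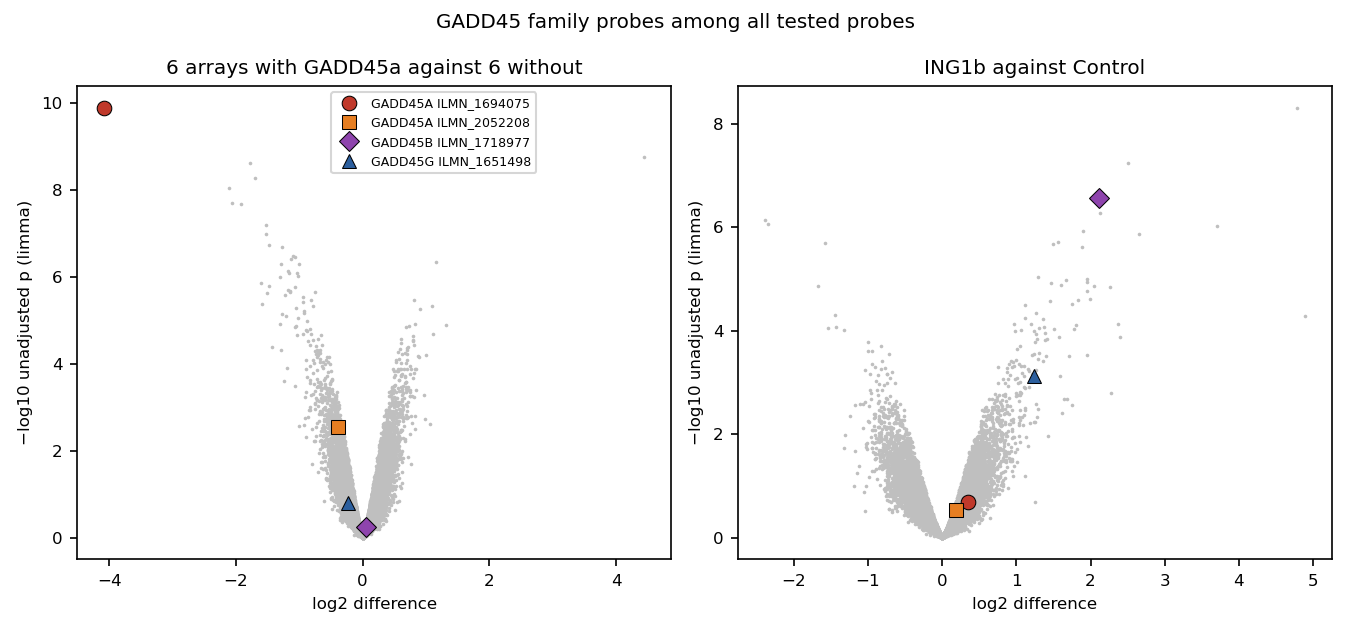
Log2 difference (x axis) and −log10 of the unadjusted limma p (y axis) of all 17814 tested probes (grey), with the 4 GADD45 family probes marked. On the left, 6 arrays labelled with GADD45a against the other 6, ILMN_1694075 has the smallest p and a fitted difference of -4.08; on the right, ING1b against Control, GADD45B has the third smallest p and a difference of 2.11.

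Other probes were ranked by how closely they followed each family probe over the 12 arrays, as a description, since arrays share groups and replicate shifts. GADD45B was followed most closely by FOSB (Pearson r = 0.971), DHRS2 (0.946), ARC (0.943), RND1 (0.939) and EGR1 (0.938). FOSB, ARC and EGR1 are immediate-early genes that respond to growth factor or neuronal stimuli, and DHRS2 encodes a short-chain dehydrogenase. DHRS2, ARC and RND1 were each detected on 4 arrays, FOSB on 7 and EGR1 on all 12. The lowest correlations were those of GART, an enzyme of purine synthesis (-0.922), OGG1, which removes oxidized guanine from DNA (-0.914), and the ribosomal protein gene RPS9 (-0.914). For GADD45G, the probe of GADD45B was the fifth closest (0.899), after UBE4B (0.918), TENT5B (0.917), UQCRC1 (0.912) and PMEL (0.901). Its lowest correlations were with MAP7 (-0.935), GART (-0.912) and DCTPP1 (-0.888). GADD45G itself was detected on 5 of the 12 arrays, so all its correlations rest partly on signal near background. TENT5B was detected on 4 arrays and PMEL on 6, while UBE4B and UQCRC1 were detected on all 12.

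The GADD45A probe ILMN_1694075 was followed by SAC3D1 (Pearson r = 0.981), the complex I subunit NDUFA13 (0.981), the tubulin cofactor TBCB (0.979), MAEA (0.978) and the Mediator subunit MED29 (0.973), with log2 differences of -2.25 to -1.69 between GADD45a and Control. Its lowest correlations were with the probe ILMN_1680730 of GGTLC1 (-0.954), SNORA71C (-0.949) and the ETS transcription factor ETV5 (-0.929). These were detected on 6, 2 and 5 arrays and MAEA on 6, so their correlations rest partly on signal near background, as does ILMN_1694075 itself. For ILMN_2052208 the closest were TBC1D7, a subunit of the TSC complex (0.958), RNFT2 (0.946), GTF2H5, a subunit of TFIIH (0.924), FLRT3 (0.911) and SHMT1 (0.908), and the lowest were STX3 (-0.934), SMG1P1 (-0.925) and PEA15 (-0.924). The 2 GADD45A probes shared none of these neighbours.

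Genes that act with the family were counted in 4 lists, at 1 probe a gene. Of 14 GADD45 binding partners 11 were measured, and 0 passed limma in any of the 5 comparisons with Control. Between 0% (ING1bΔPHD) and 1.83% (GADD45a+ING1b) of all probes were called in these comparisons, so a count of 0 in a list this short says little about it. The list includes ING1, the other transfected gene, whose probe ILMN_1662243 differed from Control by 0.30 in ING1b (limma adjusted p = 0.691), 0.23 in ING1bΔPHD, 0.22 in GADD45a+ING1b and, at most, 0.49 in GADD45a+ING1bΔPHD (limma adjusted p = 0.244), so this probe did not show the construct either. Its position was not given, and as for GADD45A it does not check the transfection. Their median difference ran from -0.08 in GADD45a+ING1b to 0.14 in GADD45a+ING1bΔPHD, where the median of all probes was -0.02 and 0.00. MAP3K4, the kinase that GADD45 proteins activate, differed from Control by -0.24 to -0.05 in the 5 groups, and CDKN1A, which encodes p21, by -0.12 to 0.17. The sliding clamp gene PCNA was lower than Control in the 5 groups by 0.19 to 0.45 and did not pass (limma adjusted p = 0.249 or higher). Of 12 p38 and JNK cascade kinases, MAP3K4 among them again, 8 were measured and 0 passed in the same comparisons, with medians from -0.03 to 0.09. The smallest unadjusted p in the first list was 0.00537 (ERCC5, a repair endonuclease, 0.50 in ING1bΔPHD) and in the second 0.0479 (MAP2K4, -0.43 in GADD45a+ING1b).

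Of 18 transcription factors reported to act on GADD45 genes, 15 were measured and 1 passed, EGR1, in ING1b (0.298% of all probes called) and GADD45a+ING1b (1.83%). EGR1 rose over Control by 1.95 in ING1b (log2, SE 0.253, limma adjusted p = 0.0131) and by 3.28 in GADD45a+ING1b (limma adjusted p = 0.000314), and differed by 0.05 in GADD45a, 0.38 in ING1bΔPHD and 0.19 in GADD45a+ING1bΔPHD, which did not pass. The other 14, among them ATF4, the NF-kB subunits NFKB1 and RELA, and the TGF-beta effectors SMAD2, SMAD3 and SMAD4, did not pass in these comparisons, and the list median was -0.07 in ING1b and -0.06 in GADD45a+ING1b.

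Of 20 other stress genes often measured beside GADD45, 16 were measured. FOSB, an AP-1 subunit, rose in ING1b (at least 3.23-fold, limma adjusted p = 0.0202) and in GADD45a+ING1b (at least 7.00-fold, limma adjusted p = 0.000494), and was the 1 gene of this list to pass in either, where 0.298% and 1.83% of all probes were called. The list median was 0.08 in ING1b, 0.55 in GADD45a+ING1b, 0.18 in GADD45a, 0.07 in ING1bΔPHD and 0.15 in GADD45a+ING1bΔPHD. When replicate number entered the fit as a block, 3 list genes passed in GADD45a, where 2.26% of all probes did: PPP1R15A (1.15, block adjusted p = 0.0265) and JUN (0.95, 0.0229) higher and SESN1 lower (-0.77, 0.0332), against 0 without the block. In GADD45a+ING1b (5.91% of probes) the block added PPP1R15A (1.07, block adjusted p = 0.018) and JUND (0.83, 0.0283), and in GADD45a+ING1bΔPHD (2.48%) it gave PPP1R15A (1.03, 0.035) and JUN (0.83, 0.0328). In ING1b, where 0.539% of probes passed with the block, FOSB and EGR1 passed with and without it. The lists were written with earlier results on EGR1 and FOSB in these arrays known, so their rise here is no independent evidence.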

How the data were processed

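Intensities on a linear scale, 1 average bead signal per probe and array, and a detection p-value per probe were deposited by the authors, made with GenomeStudio 2011.1 per the submitters' processing notes. The p-values run in steps of 1 in 770. The authors' second deposited intensity table, with values below 0 and equal array medians, served as an alternative, its processing not given in the sources used here. Scanner intensities were corrected with nec of limma 3.58.1 (R 4.3.3; background inferred from the detection p-values, offset 16), quantile-normalized and log2-transformed. Each probe detected (p under 0.01) on 2 or more of the 12 arrays was tested singly, 17814 of 47323. limma was fitted to all 12 arrays with 1 mean per group, and 15 comparisons were tested with Benjamini-Hochberg adjustment over all probes. Symbols came from the platform annotation (30113 probes with 1 symbol, 8 with several, 17202 with none; 30074 matched RefSeq), and promoters from RefSeq.

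Differences between replicates correlated at 0.228 to 0.435 in all 15 pairs of groups, above the preset 0.1. Replicate numbers were therefore taken as pairing the samples. The main fit, which gave the limma adjusted p-values, had no replicate term, and the pairing entered only the fits with the replicate block. Named were all family probes, the 5 highest and 3 lowest correlated probes of each, and list members that passed against Control, with further list members named for the values shown. Alternatives are named in the closing section. The procedure was tested on simulated data. The number of arrays limits the precision. Members and lists were chosen with earlier results of these data known.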

Additional observations from a re-analysis of the deposited data

Results flagged for a closer look

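Means of GADD45B changed with GADD45a in opposite directions in different backgrounds, with no overlap of arrays: higher with ING1b (0.71) and lower with empty vector (-0.27) and with ING1bΔPHD (-0.27), all on the log2 scale. Of all tested probes 0.269% showed this arrangement, which was itself taken from GADD45B. None of these changes passed (limma adjusted p = 0.271, 0.508 and 0.957), and the 95% intervals of both decreases (-0.65 to 0.12) included no change. Tests of the differences between backgrounds gave 0.98 for GADD45a with ING1b against GADD45a with empty vector (limma adjusted p = 0.911) and 0.98 for the effect of the PHD domain with against without GADD45a (SE 0.244, unadjusted p = 0.00255, limma adjusted p = 1.00). Neither passed over all probes. The first ranged from 0.78 to 1.15 over its 22 alternatives, with adjusted p from 0.348 to 1.00, and the second from 0.80 to 1.15 over its 22, with adjusted p from 0.593 to 1.00.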

How the results depend on the processing

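The 43 family results were recomputed under 22 alternatives, and 893 of 917 values kept their direction and their side of the threshold. With GADD45a against Control, ING1b and ING1bΔPHD and over the 3 backgrounds, ILMN_1694075 passed wherever it was tested; it had no value with 1 probe per gene or with detection on all 12 arrays, and neither did GADD45G in the latter. In GADD45a+ING1bΔPHD against Control it missed with only the groups compared (adjusted p = 0.0998). GADD45B with only the groups compared missed at 2.11 for ING1b against Control (0.0589), 1.27 for ING1b against ING1bΔPHD (0.157) and 2.24 for GADD45a+ING1b against GADD45a+ING1bΔPHD (0.0505). With arrays left out in turn, the differences of these 3 ran from 1.94 to 2.29, 1.09 to 1.44 and 2.14 to 2.35. ILMN_2052208 over the 3 backgrounds passed without background correction (-0.36), under median scaling (-0.59), with trend and robust (-0.39) and with the replicate block (-0.39), and ran from -0.46 to -0.33 with arrays left out. GADD45G in GADD45a+ING1b against GADD45a passed with the brightest probe per gene (1.37, adjusted p = 0.0464) and ran from 1.20 to 1.55 with arrays left out and from 0.54 to 2.31 over all alternatives, values set against arrays of GADD45a that did not detect it. The replicate block changed no other call of a family probe.

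Values that changed sign had not passed in any of the fits. They were GADD45B over the 3 backgrounds under median scaling (-0.13), and its interaction of GADD45a with ING1bΔPHD without background correction (-0.035), with an offset of 50 (-0.020) and with arrays left out (-0.10 to 0.10). With arrays left out, ILMN_1694075 in ING1bΔPHD against Control ran from -0.13 to 0.46 and ILMN_2052208 in GADD45a+ING1bΔPHD against GADD45a from -0.16 to 0.24. Sizes near background moved most with the correction: ILMN_1694075 in GADD45a against Control ran from -5.10 to -2.51 over all alternatives, and GADD45G in ING1b against Control from 0.51 to 1.93.

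Counts of called probes moved more than the family values. GADD45a against Control gave 89 (2 with only the groups compared, 402 with the block), ING1b against Control 53 (3 without ING1b replicate 1, 96 with the block), GADD45a+ING1b against Control 326 (34 with only the groups compared, 1453 under median scaling), and the 6 arrays with GADD45a against the others 291 (104 without ING1b replicate 2, 1639 under median scaling). Under median scaling the median of all probes moved by -0.21, -0.06, -0.27 and -0.17 in these 4, and the share of calls that were higher was 7.69% instead of 28.1%, 80.7% instead of 84.9%, 10.4% instead of 58.6% and 5.61% instead of 39.9%. It was also 10.3% instead of 36.7% in GADD45a+ING1bΔPHD against Control, 8.96% instead of 22.2% in GADD45a+ING1b against ING1b and 18.2% instead of 35.7% in GADD45a+ING1bΔPHD against ING1bΔPHD. The other counts moved too: GADD45a+ING1bΔPHD against Control gave 30 (0 to 442), GADD45a+ING1b against ING1b 36 (2 to 73; 5 without ING1b replicate 1), GADD45a+ING1bΔPHD against ING1bΔPHD 14 (1 to 23; 1 without ING1bΔPHD replicate 1), GADD45a+ING1b against GADD45a 60 (14 to 109), ING1b against ING1bΔPHD 51 (4 to 101; 9 without ING1b replicate 1) and GADD45a+ING1b against GADD45a+ING1bΔPHD 72 (7 to 139).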
